A study of Mus musculus with 12 samples.

Results

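The genes described here encode the proteins of the cytosolic ribosome. They were chosen by their mouse symbols (Rpsa, Rplp0 to Rplp2, and Rps or Rpl followed by a number, with an optional a, l or x), and 81 of the 37991 genes in the count table met the rule, 32 with a small subunit symbol and 49 with a large subunit symbol. The rule used names only and no measured value, but the members were chosen with earlier results of these data known. Of the 81 members, 78 had enough counts to be tested, among 17623 tested genes. RNA was measured in neural stem cells (NSCs) sorted as GFP+ cells from the adult mouse subventricular zone (SVZ), the stem cell layer lining the lateral ventricles.

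There were 12 libraries in 4 groups of 3, and each library pooled the SVZ of 2 brains. All mice were C57BL/6, carried the RCE GFP reporter and received tamoxifen at 10 weeks of age. Gli1Het mice (Gli1CreERT2/+) had 1 CreERT2 allele knocked into Gli1, and Gli1Null mice (Gli1CreERT2/CreERT2) had both copies replaced, which removes Gli1 in the whole animal. The label therefore marked cells that used the Gli1 promoter, and their descendants, in both genotypes. Each genotype was kept on a control diet or on 0.2% cuprizone, a copper chelator that causes loss of myelin, for 3 weeks. The comparisons asked whether these genes responded to the diet in either genotype and whether the genotypes differed.

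Cytosolic ribosomal proteins are built with ribosomal RNA into a small subunit, which reads the mRNA, and a large subunit, which joins amino acids. Their mRNAs begin with a pyrimidine-rich terminal oligopyrimidine (TOP) stretch, and their translation is controlled together by mTORC1. In the adult SVZ, quiescent NSCs make little protein, and ribosome production and translation are known to go up as the cells become activated.

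Libraries held 13752801 to 32468063 counts in genes, of which the members took 0.538% to 1.05%. Gli1 itself was at 8.65 to 18.3 CPM (counts per 1000000 counts in genes) in the Gli1Het control libraries and at 0.293 to 0.739 in the 6 Gli1Null libraries. It was at 21.5 and 3.84 CPM in Gli1Het cuprizone replicates 1 and 3, but at 0.837 in the library labelled Gli1Het cuprizone replicate 2, close to the Gli1Null level. Results that rest most on that library are given with and without it, and the plot of diet responses shows every tested member both ways. NSC markers were present in every library (none of 12 at 0, summed level 4078 to 11165 CPM). Markers of neuroblasts, the migrating offspring of NSCs, had a summed level of 6012 to 8367 CPM in Gli1Het control, 434 to 4077 in Gli1Het cuprizone, 6695 to 7014 in Gli1Null control and 4228 to 4667 in Gli1Null cuprizone libraries, with none of 14 at 0. In bulk samples, fewer cells of a type and less RNA per cell cannot be told apart.

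Start sites are shown for the 6 members with the smallest adjusted p for the diets in Gli1Het among those with an entry in the RefSeq promoter set (GRCm38.p6). Each window holds the 28 bases before the annotated start and the first 28 from it, 5′ to 3′ on the gene's strand. Capitals mark CTTTC, a short pyrimidine run as in TOP mRNAs, and CGGAAG (on either strand), the core bound by ETS factors. CTTTC is marked for Rps10 and Rpl13 and CGGAAG for Rps10 and Rps27l, while Rps19, Rpl9 and Rps2 hold neither. In Rpl13 the CTTTC lies before the annotated start. The RefSeq start used lay 1425 bases from the GENCODE gene start for Rps10, 1947 for Rps2, 221 for Rps19 and 13 or fewer for the other members shown, so these windows are annotated starts and not measured ones.
Rps19 (chr7:24884564-24884619, + strand): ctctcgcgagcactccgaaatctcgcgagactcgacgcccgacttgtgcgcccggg
Rps10 (chr17:27635217-27635272, - strand): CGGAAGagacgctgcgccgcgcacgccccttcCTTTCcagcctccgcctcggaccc
Rpl9 (chr5:65391404-65391459, - strand): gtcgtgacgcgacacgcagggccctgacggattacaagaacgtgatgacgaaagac
Rps27l (chr9:66946058-66946113, + strand): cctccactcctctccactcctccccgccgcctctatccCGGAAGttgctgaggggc
Rpl13 (chr8:123102322-123102377, + strand): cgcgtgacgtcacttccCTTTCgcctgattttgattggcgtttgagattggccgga
Rps2 (chr17:24720035-24720090, + strand): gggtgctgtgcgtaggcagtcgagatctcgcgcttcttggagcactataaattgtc

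Entries were found for 56 of the 78 tested members and for 27025 genes in all. CTTTC on the sense strand, within 50 bases on either side of any listed start, was present in 31 of the 56 members (55.4%) and in 14.6% of all genes. CGGAAG on either strand, from 250 bases before to 50 after a start, was present in 39 of the 56 (69.6%) and in 18.8% of all genes. TATAAA, the TATA box, on the sense strand in the 50 bases before a start was found in 0 of the 56 members and in 3.15% of all genes. Of the members that were called higher on cuprizone in Gli1Het, 11 had an entry, 5 with CTTTC and 6 with CGGAAG. Each motif was searched on its own as exact letters, so neighbouring matches may share bases, and a match is a description of the sequence only.

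Levels differed widely between members. Per kilobase of exon, the mean level over the 12 libraries ran from 1.07 to 257 CPM, with a median of 43.7. Rpl4, which lines the exit tunnel for the new protein, was the highest (257 CPM per kilobase), and others near the top were Rpl32 (181), Rplp1 (158) and Rpl36 (128). At the other end were Rpl12 (9.28), Rps15a (8.24), Rpl21 (2.92), Rpl29 (1.29) and Rpl6l (1.07), the last annotated as a processed pseudogene. Reads aligned to several places were not counted, and ribosomal protein genes have many processed copies in the genome, so low values of single members are uncertain.

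Of 5 paralogs listed for restricted expression, 3 were at or near 0. Rpl10l, a testis copy of Rpl10, had 0 counts in all 12 libraries. Rpl39l had 7 counts, all in 1 library, and Rpl3l, the muscle copy of Rpl3, had 49 counts over the 12. These 3 members did not pass the filter and were not tested. The others, Rps27l, the paralog of Rps27, and Rps4l, annotated as a transcribed processed pseudogene, were tested. Rps27l was at 58.2 to 337 CPM over the 12 libraries, so the list's name did not describe it in these cells.

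**Figure D1:**
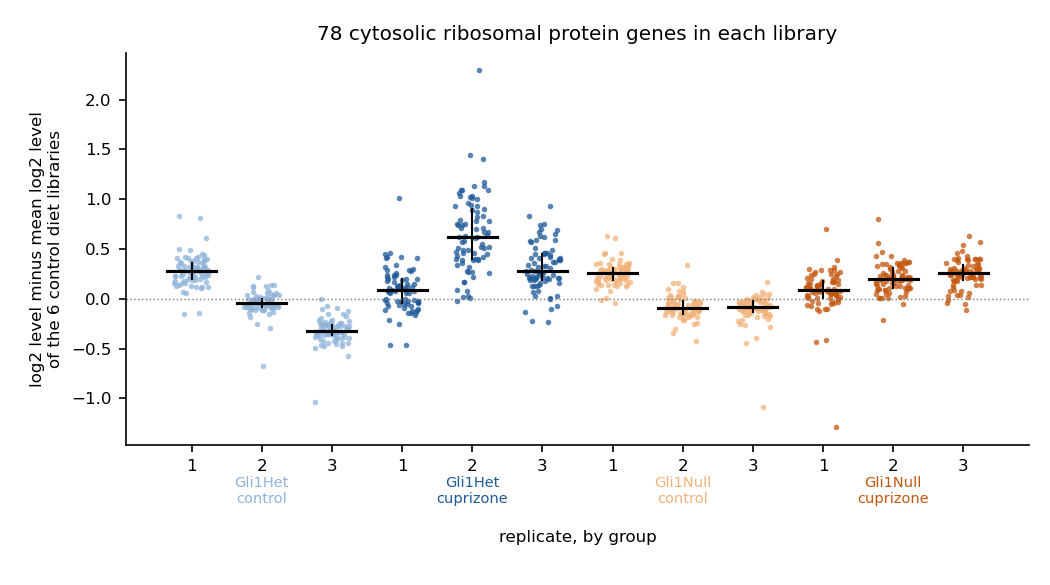
Log2 level of the 78 tested members in each of the 12 libraries, relative to the mean log2 level of the 6 control diet libraries (vertical axis), by group and replicate. Points are genes, black lines the median and quartiles. The library medians run from -0.32 in Gli1Het control replicate 3 to 0.62 in the library labelled Gli1Het cuprizone replicate 2.

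The members moved up and down together from library to library, within groups as well as between them. In the Gli1Het control group the median member stood at 0.28, -0.04 and -0.32 (log2, relative to the mean of the 6 control diet libraries) in replicates 1, 2 and 3. In Gli1Het cuprizone NSCs the medians were 0.08, 0.62 and 0.28. The control range and the cuprizone range overlapped, and replicate 1 of the control group was level with replicate 3 of the cuprizone group.

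In Gli1Null control NSCs the median member was at 0.26, -0.09 and -0.08, and in Gli1Null cuprizone NSCs at 0.09, 0.20 and 0.26. Replicate 1 was the high library of the control group in both genotypes, and the medians of the 2 Gli1Null groups overlapped. Summed over the members, the level was 5277 to 7887 CPM in Gli1Het control, 7090 to 10286 in Gli1Het cuprizone, 6021 to 7657 in Gli1Null control and 7099 to 7734 in Gli1Null cuprizone libraries.

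Levels of members are given as CPM of the library size scaled by TMM. The extremes sat in 2 libraries. Gli1Het control replicate 3 had the lowest value of the 12 libraries for 65 of the 78 members, against 7.21% of all tested genes. The library labelled Gli1Het cuprizone replicate 2 had the highest value for 61 members, against 27.8% of all tested genes. In that library 77 of the 78 members lay above their control mean, compared with 49 in replicate 1 and 72 in replicate 3 of the same group.

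Much of the spread of a single member was this shared shift. The SD of the log2 level over the 12 libraries had a median of 0.28 over the members and 0.39 over all tested genes. After the median member of each library was subtracted, the median SD of the members was 0.13, and it was smaller than before in 74 of 78. In 63 members no library lay more than 0.5 (log2) from the shared shift. Rps13, Rps23 and Rpl32 followed it most closely, with an SD of 0.05 after subtraction. The 2 subunits kept step, the small subunit members taking 0.642 to 0.737 times the counts of the large subunit members in every library.

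A few members departed from the shared shift. Rpl26, which in human cells binds the p53 mRNA and raises its translation, was at 43.9, 33.8 and 29.0 CPM in Gli1Het control, 22.5, 30.6 and 35.8 in Gli1Het cuprizone, 42.6, 33.1 and 14.6 in Gli1Null control and 12.7, 54.2 and 28.7 in Gli1Null cuprizone libraries. Its values ranged over more than the group means differed, and every group overlapped every other. Rplp0, the base of the stalk that recruits elongation factors, was at 167, 175 and 148 CPM in Gli1Het control and 183, 324 and 188 in Gli1Het cuprizone libraries, which did not overlap. It was at 247, 129 and 117 CPM in Gli1Null control and 257, 137 and 202 in Gli1Null cuprizone libraries, which overlapped.

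Others were steady in level. Rps24, Rpl21, Rps7 and Rpl11 had the smallest spread, with an SD of 0.14, 0.15, 0.16 and 0.16 (log2). Rpl21 did not follow the other members, and its SD was larger (0.27) once the shift was subtracted. The largest spread was that of Rps27l (0.66), Rpl26 (0.62), Rps4l (0.60) and Rpl6l (0.49).

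**Figure D2:**
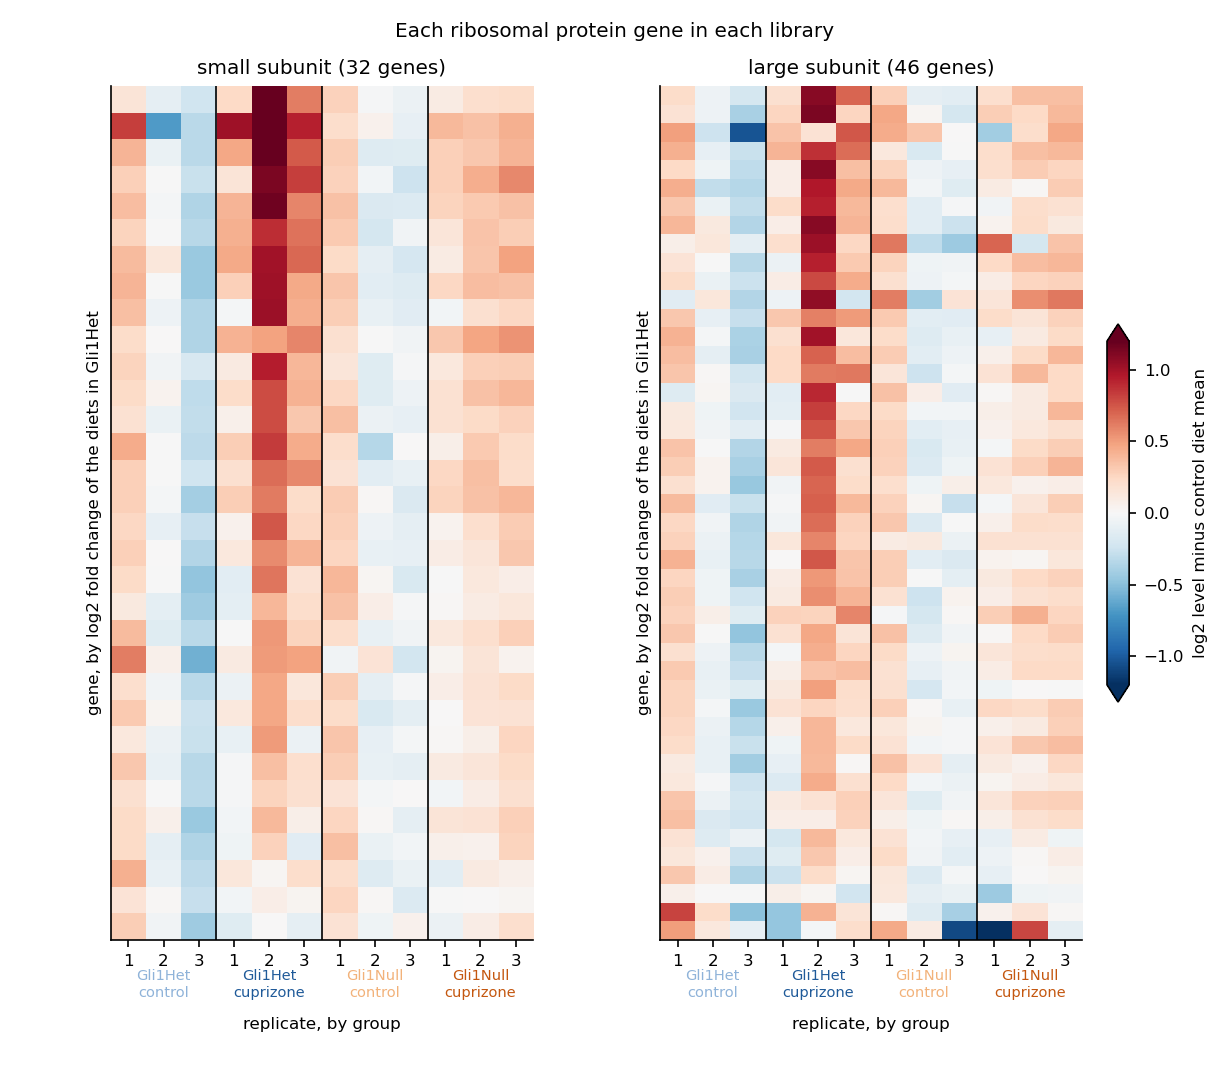
Log2 level of each tested member (rows, 32 small and 46 large subunit genes, ordered by the log2 fold change of the diets in Gli1Het) in each library (columns), relative to the mean of the 6 control diet libraries. Red is higher and blue is lower, and the colour scale is cut at 1.2. Gli1Het control replicate 3 is the lowest library for 65 members, and the library labelled Gli1Het cuprizone replicate 2 the highest for 61.

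On cuprizone, 15 of the 78 members were higher in Gli1Het NSCs and 0 were lower (edgeR, quasi-likelihood, with a Benjamini-Hochberg adjusted p under 0.05). That is 19.2% of the members, and 18.8% of all tested genes were called higher, so the share was near the background. Of all tested genes, 15.3% were called lower. The median log2 fold change of the members was 0.38, against 0.02 over all tested genes, and 73 of the 78 were above 0, against 50.9% of all tested genes. Before adjustment 28 members had a p under 0.05, all of them higher, and 46.2% of all tested genes did in either direction. DESeq2 on all libraries and limma with quality weights also called 0 members lower, where 18.7% and 27.8% of all tested genes were called lower.

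Of the 32 small subunit members 10 were called, with a median log2 fold change of 0.41 over all 32, and of the 46 tested large subunit members 5 were called, with a median of 0.37. Among the 15 were Rps2, Rps3, Rps4l, Rps10, Rps12, Rps14, Rps19, Rps20, Rps27l, Rpl9, Rpl13, Rpl13a, Rpl18 and Rpl41. The 15 lie on 9 chromosomes, and 5 of them (Rps2, Rps4l, Rps10, Rps14 and Rpl18) overlap a gene on the opposite strand, whose reads may be shared. In 8 of the 15 the groups did not overlap. Over all members this held for 9 (11.5%), against 21.1% of all tested genes, and for 0 in the other direction, against 20.8%.

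Rps20, a protein of the head of the small subunit, had the smallest adjusted p. It was at 65.1, 56.1 and 43.5 CPM in Gli1Het control and at 74.9, 78.4 and 84.2 CPM in Gli1Het cuprizone libraries. All 3 cuprizone libraries were above all 3 controls, and the library labelled replicate 2 lay between the others. The log2 fold change was 0.53 (SE 0.14, adjusted p = 0.0174, edgeR), or 1.44-fold, and it was 0.54 (adjusted p = 0.0216) without that library.

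Rps19, which is needed to mature the small subunit RNA and is mutated in Diamond-Blackfan anemia, was at 152, 108 and 91.8 CPM in Gli1Het control and at 158, 311 and 192 in Gli1Het cuprizone libraries. The lowest cuprizone library was just above the highest control. The log2 fold change was 0.91 (SE 0.25, adjusted p = 0.018, edgeR) and was 0.58 (adjusted p = 0.0445) without the library labelled replicate 2.

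Rps10, which sits near the mRNA entry and is tagged with ubiquitin on stalled ribosomes, was at 49.2, 40.6 and 32.5 CPM in Gli1Het control and 54.8, 75.7 and 64.1 in Gli1Het cuprizone libraries. The groups did not overlap. Its log2 fold change was 0.67 (SE 0.18, adjusted p = 0.0181, edgeR), and 0.55 (adjusted p = 0.0439) without the library labelled replicate 2.

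Rps27l had the largest fold change and rested most on 1 library. Its mRNA is raised by p53, and its protein binds Mdm2, the ligase that degrades p53. It was at 76.5, 63.6 and 58.2 CPM in Gli1Het control and at 81.0, 337 and 105 CPM in Gli1Het cuprizone libraries. The groups did not overlap, but the library labelled replicate 2 was far above the other 2. The log2 fold change was 1.40 (SE 0.41, adjusted p = 0.0231, edgeR), and without that library it was 0.50 (SE 0.15, adjusted p = 0.0282).

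Its parent gene Rps27 was not called (log2 fold change 0.42). In the library labelled replicate 2, Rps27l stood 1.67 above the shared shift of the members, the largest departure of any member in any library. Of 8 genes listed for the nucleolar control of p53, 2 were higher (25%) and 2 lower (25%) in Gli1Het by edgeR. Of all tested genes 18.8% were higher and 15.3% lower. The median log2 fold change of the 8 was 0.07, and Ncl, described below, was among the 2 lower. In the library labelled replicate 2, 5 of the 8 lay above their control mean, and so, slightly, did the median tested gene. Without that library 1 of the 8 was higher and 1 lower. Cdkn1a, the cell cycle inhibitor induced by p53, was at 36.5 CPM or less in Gli1Het control libraries. In Gli1Het cuprizone libraries it was at 181, 1614 and 407 CPM. Mdm2 was at 126, 126 and 129 CPM in Gli1Het control and at 123, 916 and 166 CPM in Gli1Het cuprizone libraries. Trp53 itself was at 131 to 183 CPM in all 12 libraries. Without that library Cdkn1a had a log2 fold change of 3.32 (adjusted p = 2.97e-05, edgeR) and Mdm2 one of 0.19 (adjusted p = 0.289). The part of p53 in the Rps27l values was not tested.

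Rpl9, a large subunit protein, was at 92.6, 76.2 and 68.4 CPM in Gli1Het control and 90.9, 169 and 129 in Gli1Het cuprizone libraries, and Rpl13 was at 231, 161 and 143 and at 229, 315 and 273 CPM. In both, cuprizone replicate 1 fell inside the control range. Their log2 fold changes were 0.72 (adjusted p = 0.022) and 0.61 (adjusted p = 0.0238, edgeR), and without the library labelled replicate 2 they were 0.48 (adjusted p = 0.0599) and 0.50 (adjusted p = 0.0554), past the threshold no longer.

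Rps4l is annotated in GENCODE as a transcribed processed pseudogene on the strand opposite to Tmtc1. It was at 27.9, 9.81 and 12.5 CPM in Gli1Het control and 31.8, 41.7 and 30.0 in Gli1Het cuprizone libraries, with no overlap between them. Its log2 fold change was 1.06 (SE 0.31, adjusted p = 0.0245, edgeR) and 0.90 (adjusted p = 0.0579) without the library labelled replicate 2. Reads of Rps4x, Tmtc1 and this copy may not be fully separated.

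**Figure D3:**
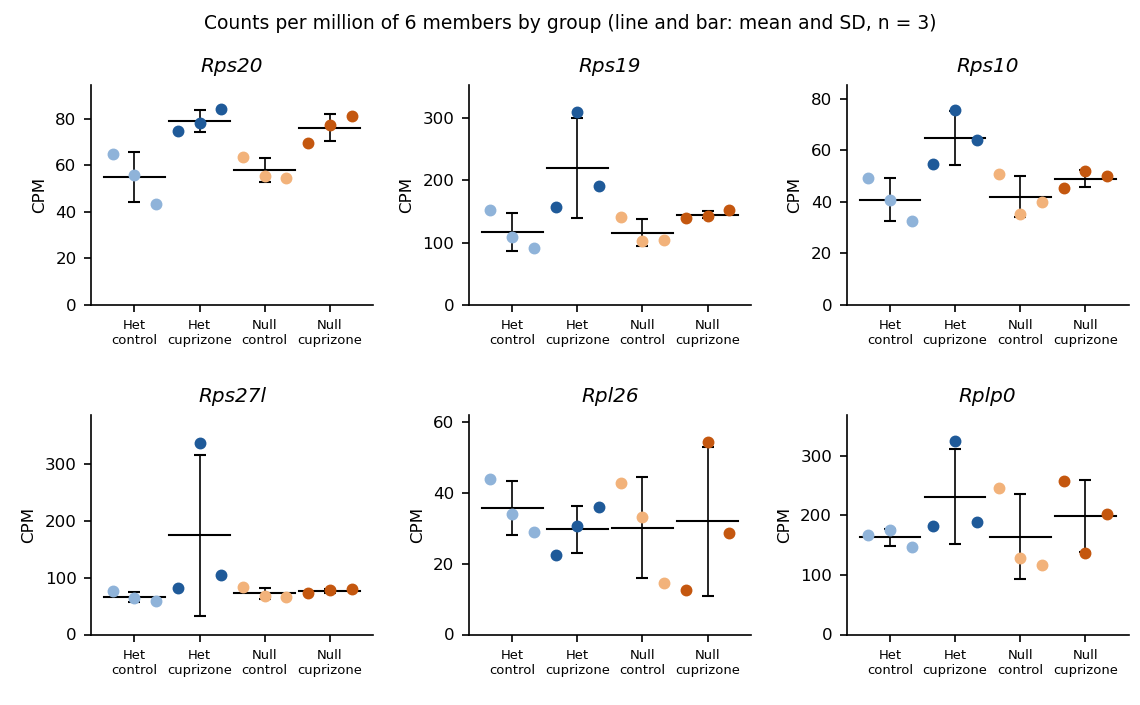
CPM (vertical axis) of Rps20, Rps19, Rps10, Rps27l, Rpl26 and Rplp0 in each library by group. Points are libraries in order of replicate, lines and bars the mean and SD of 3 libraries. For Rps20 the cuprizone libraries of both genotypes lie above their controls, for Rps27l 1 Gli1Het cuprizone library is at 337 CPM, and for Rpl26 the groups overlap.

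By role, 5 of 8 tested proteins of the small subunit core were higher on cuprizone in Gli1Het (edgeR), with a median log2 fold change of 0.50, where 18.8% of all tested genes were higher. Without the library labelled replicate 2 only 1 of the 8 was called (Rps19), and without Gli1Het control replicate 3 none was. The 5 included Rps19, Rps14, the gene whose loss gives the anemia of the 5q- syndrome in humans, and Rps2 and Rps3, which line the mRNA entry. Rps6, the substrate of the S6 kinases downstream of mTORC1, was at a log2 fold change of 0.50 (adjusted p = 0.0623, edgeR), Rps4x at 0.28 and Rpsa at 0.27, and these were not called.

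In the large subunit core 2 of 10 were called, Rpl13a and Rpl41, with log2 fold changes of 0.48 and 0.69 and a median of 0.27 over the 10. Without the library labelled replicate 2 these were 0.42 (adjusted p = 0.0978, edgeR) and 0.34 (adjusted p = 0.195), and neither was called. Rpl8 was at 0.45 (adjusted p = 0.0522, edgeR), Rpl23 at 0.50, Rpl4 at 0.31, Rpl39 at 0.24, Rpl7 at 0.22, Rpl3 at 0.16, Rpl22 at 0.14 and Rpl26 at -0.26. None of the 3 stalk proteins was called by edgeR, with log2 fold changes of 0.51 for Rplp0, 0.57 for Rplp1 and 0.39 for Rplp2, or 0.19, 0.31 and 0.28 without that library. Rps27a, made as a fusion with ubiquitin, was at 0.47 and was not called.

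The 2 proteins that bind Mdm2 together with the 5S RNA when ribosome assembly fails were not called. Rpl5 was at a log2 fold change of 0.13 (SE 0.15) and Rpl11 at 0.11 (SE 0.15), with adjusted p of 0.519 and 0.58 (edgeR). Among the proteins added late in assembly, Rps10 was called, and Rpl10 (0.38) and Rps26 (-0.05) were not.

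**Figure D4:**
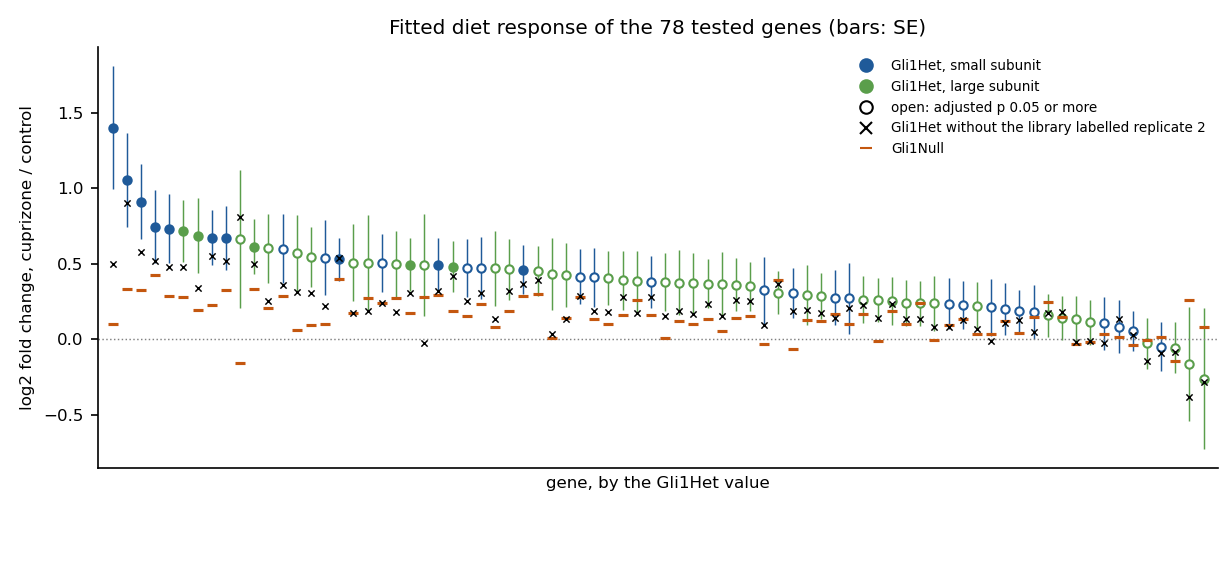
Fitted log2 fold change of cuprizone against control (vertical axis) for each of the 78 tested members (horizontal axis, ordered by the Gli1Het value). Circles with SE bars are Gli1Het, filled where the adjusted p was under 0.05, crosses are Gli1Het without the library labelled replicate 2, and orange dashes are Gli1Null. Of the Gli1Het values 73 are above 0 and 15 are filled, and 72 of the 78 crosses lie below their circles.

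The calls depended on single libraries. Without the library labelled Gli1Het cuprizone replicate 2, 4 members were called (Rps10, Rps19, Rps20 and Rps27l), the median log2 fold change was 0.19 and 68 of 78 were above 0, while 15.0% of all tested genes were called higher. Without Gli1Het control replicate 3, 0 were called and the median was 0.23 (15.3% of all tested genes were called higher). Without control replicate 2 only Rps20 was called (11.4%), and without control replicate 1, 30 were called (14.4%). Without cuprizone replicate 3, 6 were called (14.2%), and without cuprizone replicate 1, 40 (24.1%).

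Across the 12 fits with 1 library left out, Rps10, Rps19, Rps20 and Rps27l were each called in 10. Rps14 and Rps4l were called in 9, Rpl9, Rpl13, Rps2 and Rps12 in 8, Rpl13a in 3, and Rpl18, Rpl41 and Rps3 in 2. The fits without a Gli1Null library keep every library of this comparison. Every gene called in 8 or more of the 12 fits was called in all of these. Each fit that did not call 1 of those genes was without a Gli1Het library. A fit of the 2 Gli1Het groups alone called 0 members with edgeR, against 4.51% of all tested genes, and 3 with DESeq2, against 12.3%. With limma and library quality weights, which gave the library labelled replicate 2 the lowest weight of the 12, 51 members were called, against 29.0% of all tested genes higher and 27.8% lower.

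**Figure D5:**
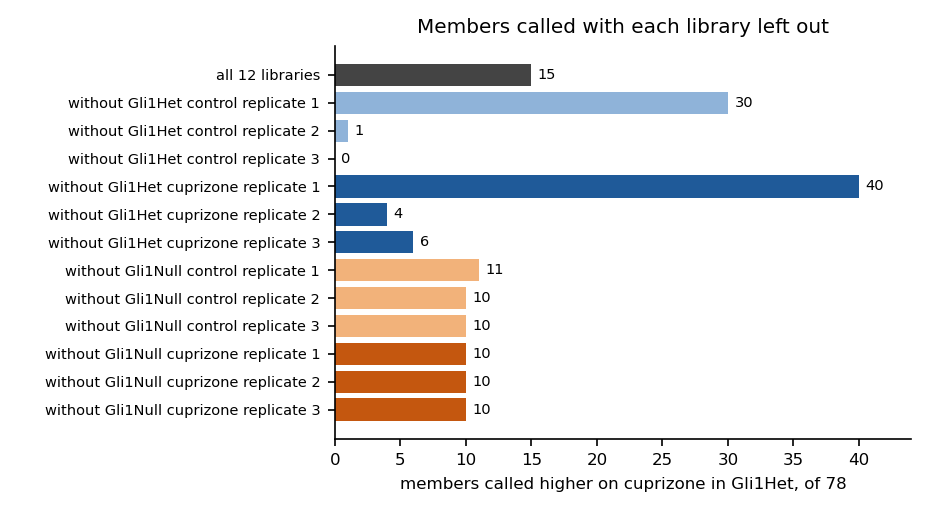
Number of the 78 tested members called higher on cuprizone in Gli1Het NSCs (horizontal axis) by edgeR with all 12 libraries and with each library left out. The bars run from 0 without Gli1Het control replicate 3 to 40 without Gli1Het cuprizone replicate 1, against 15 with all libraries.

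In Gli1Null NSCs, 0 of the 78 members were called in either direction on cuprizone by edgeR, with 3.37% of all tested genes called higher and 0.25% lower. Their median log2 fold change was 0.14, and 68 of 78 were above 0 (48.3% of all tested genes). The median was 0.27 without Gli1Null control replicate 1 and 0.08 without Gli1Null control replicate 3. An unadjusted p under 0.05 was reached by 2 members (18.1% of all tested genes). In edgeR these were Rpl4, with a log2 fold change of 0.39 (SE 0.14, adjusted p = 0.161), and Rps20, with 0.40 (SE 0.14, adjusted p = 0.162). DESeq2 on all libraries called 0.

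With edgeR on the 2 Gli1Null groups alone, 3 members were higher (Rpl4, Rpl13 and Rps20), with DESeq2 on them 8, and with limma and quality weights 11. Of all tested genes these fits called 13.6%, 15.2% and 15.1% higher. The spread among Gli1Het libraries enters the fit of all 12 libraries and not these 2. The cuprizone libraries all lay above the controls for 10 members (12.8%), against 21.4% of all tested genes, and below them for 0, against 20%. Rpl4 was at 448, 391 and 457 CPM in Gli1Null control and 553, 609 and 540 in Gli1Null cuprizone libraries. Rps20 was at 63.8, 55.6 and 54.4 CPM and at 69.8, 77.6 and 81.4 CPM. For both genes the 2 diets did not overlap.

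The 15 members called in Gli1Het had log2 fold changes of 0.10 to 0.42 in Gli1Null. The difference between the genotypes in the response to the diet was tested directly as an interaction. It called 0 members by edgeR, where 0% of all tested genes were called in either direction. DESeq2 on all libraries called 0, with 0.261% of all tested genes higher and 0.0908% lower. Limma with quality weights called 1 (Rps4l), with 5.79% of all tested genes higher and 9.66% lower. The response was larger in Gli1Het for 70 of 78 (49.9% of all tested genes), with a median of 0.23, and without the library labelled Gli1Het cuprizone replicate 2 the median was 0.06. Of the members, only Rps27l had an unadjusted p under 0.05 (9.03% of all tested genes did), with an interaction of 1.30 (SE 0.57, adjusted p = 0.543, edgeR), which was 0.39 without that library.

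Between the genotypes on cuprizone, 0 members were called by edgeR (0.017% of all tested genes were called higher in Gli1Het and 0.0227% lower). The median log2 difference, Gli1Het minus Gli1Null, was 0.18 and became 0.01 without the library labelled Gli1Het cuprizone replicate 2. The difference was above 0 for 68 of 78 (51.3% of all tested genes), and for 41 of 78 without that library. The unadjusted p was under 0.05 for 4 members (24.9% of all tested genes), Rps27l (1.17), Rps4l (0.75), Rps19 (0.60) and Rps10 (0.40), all higher in Gli1Het. Without the library labelled Gli1Het cuprizone replicate 2 these differences were 0.26, 0.58, 0.26 and 0.27, and none was called by edgeR. DESeq2 on all libraries called Rps27l, DESeq2 on the 2 groups called Rps4l, and limma with quality weights called 9 higher and 1 lower. Of all tested genes, DESeq2 on all libraries called 5.92% higher and 3.73% lower, DESeq2 on the 2 groups 2.99% and 1.06%, and limma 18.2% and 19.7%. The Gli1Het libraries all lay above the Gli1Null libraries for 9 members (11.5%), against 13.2% of all tested genes, and below them for 0, against 14.9%.

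Between the genotypes on the control diet, 0 members were called by edgeR, DESeq2 or limma. Of all tested genes edgeR called 0%, so Gli1 itself was not called. Gli1 was at 8.65 to 18.3 CPM in Gli1Het control and 0.293 to 0.389 in Gli1Null control libraries. DESeq2 on all libraries and limma each called 1 of all tested genes. The paper reported Gli1 as the only gene that differed here. A count of 0 by edgeR between the genotypes therefore does not show that they were alike. No member had an unadjusted p under 0.05 (1.44% of all tested genes did). The median log2 difference was -0.04, with 25 of 78 above 0 (50.7% of all tested genes), and no member had groups that did not overlap (3.5% of all tested genes were higher and 4.31% lower without overlap). The comparisons of the cuprizone and control groups share libraries, so their values are set side by side and are not independent.

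Among ribosomal proteins whose symbols fall outside the rule, Rpl22l1 and Rpl36al were higher on cuprizone in Gli1Het NSCs (edgeR), with log2 fold changes of 1.14 and 1.04. Without the library labelled replicate 2 these were 0.30 (adjusted p = 0.118, edgeR) and 0.29 (adjusted p = 0.254), and neither was called. With all libraries Fau (0.30), Rack1 (0.40) and Rpl7l1 (0.19) were not called either. Rpl22l1, a paralog of Rpl22, was at 15.1, 16.4 and 14.1 CPM in Gli1Het control and 19.5, 62.7 and 17.9 in Gli1Het cuprizone libraries, and Rpl36al was at 26.5, 25.3 and 23.3 and at 27.6, 92.5 and 33.7 CPM. Both were highest in the library labelled replicate 2, like Rps27l.

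Proteins of the mitochondrial ribosome, which translates mRNAs of the mitochondrial genome, were higher in 14 (18.7%) and lower in 1 of 75 on cuprizone in Gli1Het, with a median log2 fold change of 0.21, near the 18.8% of all tested genes called higher. The 14 became 6 without the library labelled replicate 2, and 4 to 25 with any 1 library left out, fewest without Gli1Het control replicate 2 and most without Gli1Het cuprizone replicate 1. In Gli1Null 0 of 75 were called, with a median of -0.01. Mrps6 was at 36.3, 31.5 and 34.5 CPM in Gli1Het control and 61.8, 147 and 101 in Gli1Het cuprizone libraries (log2 fold change 1.60, adjusted p = 0.00165, edgeR). Mrpl18 went the other way, from 71.2 to 87.6 CPM in control to 47.8 to 62.4 CPM in cuprizone libraries.

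Factors that build the ribosome were higher in 11 (20.8%) and lower in 3 of 53 in Gli1Het, with a median log2 fold change of 0.18, and 0 were called in Gli1Null. The share higher was again near that of all tested genes, and the 11 became 7 without the library labelled replicate 2 and 4 to 18 with any 1 library left out, at the same extremes. Rrp12, Rrp9 and Nop2, which act in pre-ribosome export, small nucleolar RNA particles and RNA methylation, had log2 fold changes of 1.12, 0.71 and 0.70. Rrp9 was at 52.7, 46.8 and 45.1 CPM in Gli1Het control and 70.5, 81.8 and 83.6 in Gli1Het cuprizone libraries, with no overlap. Nucleolin (Ncl) was lower, with a log2 fold change of -0.41 (adjusted p = 0.038, edgeR), and was not called without the library labelled replicate 2 (-0.27, adjusted p = 0.0777).

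Other genes did not follow 1 direction. Of 15 further genes listed for TOP mRNAs, most of them translation factors, 2 were higher in Gli1Het (13.3%) and 1 was lower (6.67%). The median log2 fold change of the 15 was 0.21. Eef1g, an elongation factor subunit, and Vim, which encodes the filament protein vimentin, were higher. Hnrnpa1, an RNA-binding protein of splicing, was lower. Of 31 other translation factors 7 were higher (22.6%) and 2 lower (6.45%), where 18.8% of all tested genes were higher and 15.3% lower. Eif3c, a subunit of the initiation factor that loads the small subunit, was the lowest in adjusted p. It was at 204, 187 and 157 CPM in Gli1Het control, 337, 420 and 402 in Gli1Het cuprizone, 184, 185 and 194 in Gli1Null control and 330, 322 and 322 in Gli1Null cuprizone libraries. The diets did not overlap in either genotype, and the log2 fold changes were 1.08 (adjusted p = 0.000407) and 0.79 (adjusted p = 0.00653, edgeR).

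Among 18 genes that couple growth signals to translation, 5 were higher (27.8%) and 3 lower (16.7%) in Gli1Het, and 2 higher (11.1%) in Gli1Null. All tested genes were higher in 18.8% and lower in 15.3% in Gli1Het, and higher in 3.37% in Gli1Null. Sesn2, a leucine sensor that restrains mTORC1, had log2 fold changes of 2.93 in Gli1Het (adjusted p = 0.00024) and 2.48 in Gli1Null (adjusted p = 0.00102, edgeR). Eif4ebp1, the repressor of cap binding that mTORC1 switches off, had 2.42 and 1.96. Both were called in both genotypes. Myc, an activator of ribosome genes, was at 11.1, 11.1 and 11.5 CPM in Gli1Het control and at 16.5, 144 and 57.1 in Gli1Het cuprizone libraries, with no overlap, and had a log2 fold change of 2.69 (adjusted p = 0.0048, edgeR), or 1.71 (adjusted p = 0.00461) without the library labelled replicate 2, while in Gli1Null it had 0.31 and was not called.

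Marker lists of the sorted cells and of other cells differed between the same libraries. In Gli1Het cuprizone libraries the neuroblast markers had medians of -0.74, -4.65 and -2.39 (log2, relative to the control diet mean) and the ependymal markers 1.48, 2.82 and 1.86, while in Gli1Null cuprizone libraries they were at -0.73 to -0.59 and at 0.99 to 1.18. Of 14 neuroblast markers 12 were lower on cuprizone in Gli1Het, and of 10 markers of activated or proliferating progenitors 7 were lower. The ependymal list was higher in 5 of 8, with a summed level of 50.1 to 101 CPM in Gli1Het control and 189 to 544 in Gli1Het cuprizone libraries. Microglia markers were higher in 7 of 14 in Gli1Het (median log2 fold change 1.92) and in 1 of 14 in Gli1Null (median -0.43). Their summed level was 74.5 to 94.6 CPM in Gli1Het control and 162 to 219.9 in Gli1Het cuprizone libraries. In Gli1Null it was 70.1 to 97.6 CPM in control and 101 to 123 in cuprizone libraries, so there the sum and the median went opposite ways. Of the 14 microglia genes, 3 (Aif1, Itgam and Trem2) were at 0 in at least 1 library. Oligodendrocyte precursor markers were higher in 3 of 7 in Gli1Het and 2 of 7 in Gli1Null, with a summed level of 99.6 to 107 CPM in Gli1Het control and 238 to 463 in Gli1Het cuprizone libraries. NSC markers were higher in 6 of 12 in Gli1Het and 3 of 12 in Gli1Null. Of the remaining lists in Gli1Het, oligodendrocyte markers were lower in 2 of 10, endothelial markers in 3 of 7 and mature neuron markers in 1 of 6. The endothelial list summed to only 1.03 to 13.5 CPM, with Cdh5, Cldn5 and Tek at 0 in at least 1 library. Cldn11, Mog and Opalin of the oligodendrocyte list and Slc17a7 of the neuron list also reached 0. All tested genes were higher in 18.8% and lower in 15.3% in Gli1Het, and higher in 3.37% in Gli1Null. Without the library labelled replicate 2 the neuroblast list was lower in 14 of 14, the ependymal list higher in 5 of 8 and the microglia list higher in 5 of 14. The part of these cell types in the levels of the members was not tested.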

How the data were processed

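RNA of GFP+ NSCs from 12 libraries was sequenced after SMART-Seq V4 amplification. As the paper's methods and the submitters' notes have it, quality control used FastQC 0.11.5, alignment to mm10 TopHat2 2.1.1, counting HTSeq 0.11.1 and normalization DESeq2 1.12. Neither the annotation release nor whether counting used strand is given in the sources used here. The deposited values used are other than plain count columns, since each cell holds a gene ID next to its read count. The ID in the cell was used because the sheet's first column named another gene in 33998 lines. A signal table, also deposited, holds the counts after division by a size factor for each library. Of its values 100% gave whole reads within 0.01, a recovery chosen after seeing the data.

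Library sizes held gene lines only, and reads without a feature were 54.5% to 58.4% of those aligned uniquely. Genes passed edgeR's filter at a minimum count of 10. TMM-scaled counts were fitted in 1 quasi-likelihood model of 4 groups with edgeR 4.0.16 in R 4.3.3, with Benjamini-Hochberg adjustment over 17623 genes at 0.05, and 5 comparisons were drawn. Each SE is the absolute log2 fold change divided by the root of its F statistic, and log2 levels used a prior count of 2. The tests were tried on simulated counts, drawn for each gene separately. These had no shift shared by genes of a library, so they do not cover the shared shift of the members. Coordinates, exon lengths and gene types came from GENCODE M21 (mm10) and start sequences from RefSeq. Replicates are separate pools of mice.

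Alternatives were DESeq2 1.42.0, edgeR on 2 groups, other scalings, no filter, limma 3.58.1 with quality weights, a block, a term for libraries whose label number was under 10, and each library left out. The names of the members called without each library were added after seeing the data. The members and lists were chosen with earlier results of these data known. Members named are those with a listed role, up to 6 called with the smallest adjusted p per direction and comparison, the 5 highest and 5 lowest per kilobase, the 4 most and 4 least variable, and those not tested. Some genes that this rule or the lists name are not reported here. Other names were chosen after their values were seen.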

Additional observations from a re-analysis of the deposited data

How the results depend on the processing

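Under the alternatives the 5 medians over the members moved by less than the pooled SD of library medians within groups, and 4 kept their sign. Most of the 5 medians were themselves smaller than or close to that SD, so this comparison cannot show that they are stable. With 1 library left out, the median for the diets in Gli1Het ranged from 0.19 to 0.53. That for the genotypes on cuprizone ranged from 0.01 to 0.32. The median for the genotypes on the control diet ranged from -0.21 to 0.09 with 1 library left out, above 0 without Gli1Het control replicate 3 (0.09) or Gli1Null control replicate 1 (0.08). No called member reversed. The number of members higher on cuprizone in Gli1Het was 15 in the fit reported (18.8%). Brackets hold the share of all tested genes called higher. DESeq2 on all libraries gave 19 (20.8%). On the 2 groups alone DESeq2 gave 3 (12.3%) and edgeR 0 (4.51%). Limma with quality weights gave 51 (29.0%), DESeq2 size factors 11 (18.5%), library totals 17 (19.2%) and TMM computed without the members 15 (18.8%). Without the filter it was 10 (10.1% of 27610 genes), with the term for low label numbers 12 (20.4%) and on recovered reads 15 (18.8%). It was 0 (15.3%) without Gli1Het control replicate 3 to 40 (24.1%) without Gli1Het cuprizone replicate 1. In Gli1Null it was 8 with DESeq2 (15.2%) and 3 with edgeR (13.6%) on the 2 groups, 11 with limma (15.1%), and 0 otherwise. Between the genotypes on cuprizone it was 1 with DESeq2 on all libraries (5.92%) and 1 with DESeq2 on the 2 groups (2.99%). Limma called 9 members higher and 1 lower, where 18.2% of all tested genes were higher and 19.7% lower. Leaving out 1 library gave 0 to 4. The 4 were without Gli1Het cuprizone replicate 1, where 12.9% of all tested genes were higher and 15.6% lower. For the interaction it was 1 with limma (5.79%) and 0 to 1 with 1 library left out, the 1 without Gli1Het cuprizone replicate 1 (3.54%). For the diets in Gli1Het with 1 library left out, the genes listed for TOP mRNAs were higher in 1 to 5. The 1 was without Gli1Het control replicate 2 (11.4%) and the 5 without Gli1Het control replicate 1 (14.4%). Other translation factors were higher in 3 without Gli1Het control replicate 3 (15.3%) to 10 without Gli1Het cuprizone replicate 1 (24.1%). Growth control genes were lower in 2 to 8, the 8 without Gli1Het cuprizone replicate 1, where 23.6% of all tested genes were lower. The cause of these differences was not tested.

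With a replicate block 10 members were higher in Gli1Het, against 16.0% of all tested genes. Same-numbered libraries of different groups did not deviate together as a rule (r of -0.12 to 0.12 over 18 pairs, 2 of them over 0.1), so the numbers were not taken to pair the libraries. With 3 libraries per group, changes of the size of the member median lie within the spread of libraries of 1 group.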
